A study of Saccharomyces cerevisiae with 24 samples.

Results

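The genes described here are 43 genes of amino acid biosynthesis in budding yeast that are grouped under the transcription factor Gcn4: GCN4 itself and 42 genes for enzymes and 1 transporter of the arginine, histidine, branched chain, lysine, tryptophan, aromatic, asparagine and serine pathways. They were taken from a list of symbols and found on the arrays by their open reading frame names. The auxotrophic marker genes of the strain were left out of the list. All 43 were among the 6576 systematic names on the array and among the 6209 that passed the filter on dim probes, each with 1 probe that was above background on all 24 arrays and saturated on none. The measurements came from 24 Agilent arrays with a single dye, 3 for each of 8 groups of W303 Mat a cells grown at 30 °C in selective synthetic complete medium. All strains carried Δire1 and a restored form of the gene: IRE1 in the strains called IRE1 cells here, and ire1ΔLD, which lacks the lumenal domain, in those called ΔLD cells. Each form was sampled untreated, after 1 h in 2 mM DTT, in a strain that also carried Δopi3, and in the Δopi3 strain after overnight growth with 1 mM choline. The series presents DTT as protein stress and Δopi3 as lipid stress.

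Gcn4 is a transcriptional activator of amino acid biosynthesis. Its production is controlled mainly in translation: when uncharged tRNA activates the kinase Gcn2, phosphorylated initiation factor eIF2 slows general translation but lets ribosomes reach the GCN4 coding sequence past short upstream reading frames. The level of GCN4 mRNA is therefore an incomplete guide to Gcn4 activity, and neither Gcn4 protein nor its binding was measured here. Several pathways also have a regulator of their own, such as Leu3 for leucine and Lys14 for lysine. Ire1 is the sensor of stress in the endoplasmic reticulum, and OPI3 encodes a methyltransferase of phosphatidylcholine synthesis, a lipid that cells can also make from choline.

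Values are log2 signals relative to the 75th percentile of the same array, and changes are differences of such values with their standard error (SE) from limma, 3 arrays per group. A gene is said to rise or fall when its adjusted p (Benjamini-Hochberg over 6209 genes) was under 0.05. The 75th percentile signal lay between 6951 and 15890 and the share of spots above background between 90.61% and 95.8%. Same-numbered replicates of all 8 groups shared 1 slide and 1 scan, and nothing in the labels says whether replicates were separate cultures, so p-values measure the spread between these samples. OPI3 did not match the label on 5 of the 12 arrays labelled Δopi3, where its probe was above background: replicates 2 and 3 of the Δopi3 IRE1 cells had 0.752% and 31% of the untreated mean, replicates 2 and 3 of the Δopi3 ΔLD cells 1.53% and 23.3%, and replicate 3 of the choline-treated IRE1 cells 11.4%. The other 7 were not above background. The main counts of calls, some leading genes and the correlations that rest on these libraries are given with and without them. Other Δopi3 and choline values are given with all arrays only. These include the overlap and 2-fold counts, the genes that fell or rose in both stresses, and the ratios of paralogs. The 6 genes of a-cells (MFA1, MFA2, STE2, STE6, BAR1 and ASG7) were above background on all 24 arrays, as were the alpha-cell genes STE3 and SAG1. The alpha-factor gene MF(ALPHA)1 was above background on 12 arrays and MF(ALPHA)2 on 4.

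The scale matters for direction. When arrays were scaled to 7 spike-in control probes, the median change of all genes moved from 0.07 to 0.96 for DTT in IRE1 cells, from 0.08 to 0.43 for DTT in ΔLD cells and from -0.02 to 0.21 for Δopi3 in IRE1 cells. It moved from -0.02 to 0.2 for choline in IRE1 cells and from -0.03 to 0.14 in ΔLD cells, while for Δopi3 in ΔLD cells it was 0 and -0.02. All falls below are therefore falls relative to most other genes of the same array. A lower share of the signal and fewer transcripts per cell cannot be told apart.

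GCN4 (YEL009C) fell with DTT and was not called in Δopi3 cells. In IRE1 cells its log2 signal was 3.49, 3.3 and 3.56 untreated, 2.79, 2.8 and 2.84 with DTT, 3.5, 3.39 and 3.69 in Δopi3 cells, and 3.23, 3.18 and 3.49 with choline. In ΔLD cells it was 3.44, 3.31 and 3.41 untreated, 2.76, 2.43 and 2.66 with DTT, 3.62, 3.26 and 3.52 in Δopi3 cells, and 3.22, 3.06 and 3.33 with choline. The DTT arrays were the lowest of both strains and did not overlap any other group, while the untreated and Δopi3 arrays overlapped. The fall with DTT was -0.64 (SE 0.11, adjusted p = 4.37e-05, limma) in IRE1 cells and -0.77 (SE 0.11, adjusted p = 6.51e-06) in ΔLD cells. The change in Δopi3 cells was 0.07 (SE 0.11, adjusted p = 0.571) and 0.08 (SE 0.11, adjusted p = 0.568). Scaled to the spike-in probes, the DTT change of GCN4 in IRE1 cells was 0.25 and not called, below the 0.96 of all genes.

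**Figure D1:**
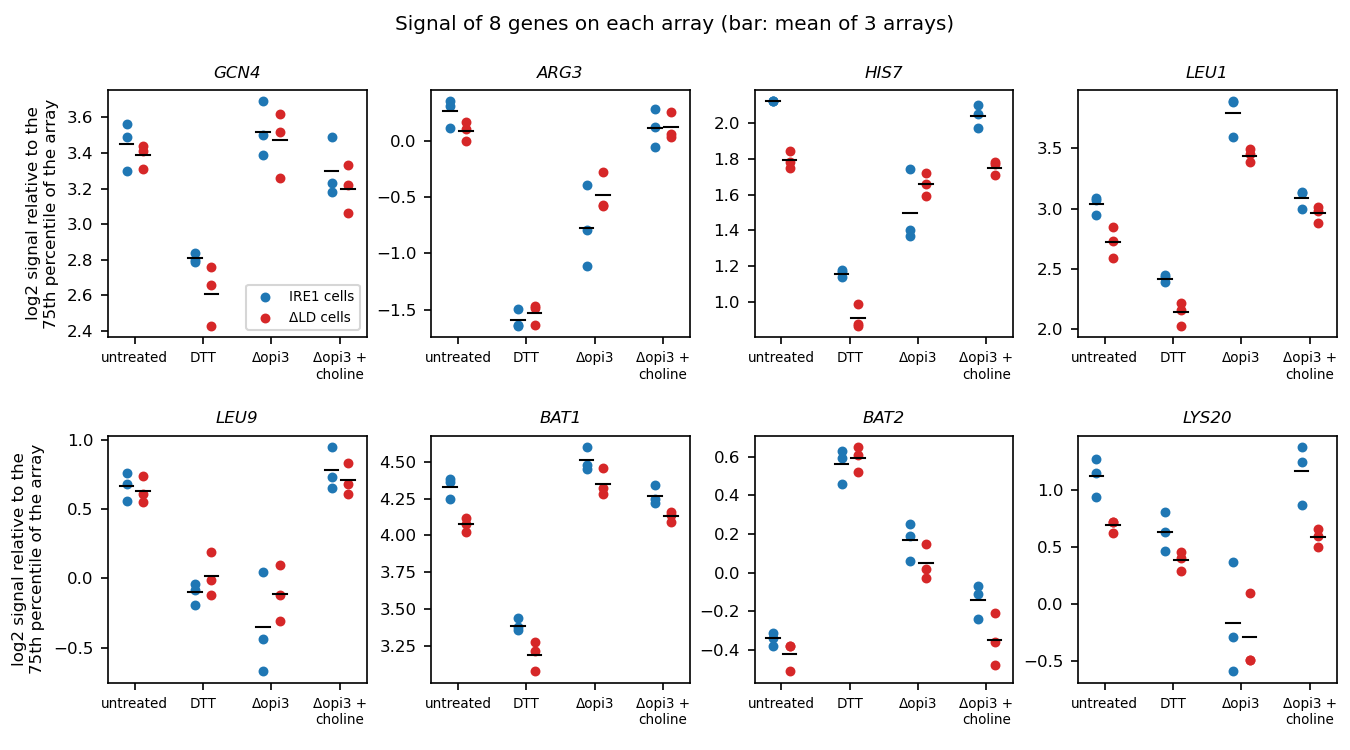
Log2 signal relative to the array's 75th percentile (vertical axis) of 8 genes in the 4 conditions (horizontal axis), one point per array, blue for IRE1 cells and red for ΔLD cells, with a bar at the mean of 3 arrays. GCN4, ARG3, HIS7, BAT1 and LEU1 are lowest with DTT, LEU1 is highest in Δopi3 cells, BAT2 is highest with DTT, and LEU9 and LYS20 have their lowest points in Δopi3 cells, on this scale.

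Most of the biosynthetic genes fell with DTT in both strains. Of the 43 genes, 40 fell and 1 rose in IRE1 cells, where 30.1% of all genes fell and 39.4% rose. In ΔLD cells 35 fell and 2 rose, against 28.3% and 38.1% of all genes. The median change of the 43 was -0.76 in IRE1 cells and -0.68 in ΔLD cells, beside medians of 0.07 and 0.08 over all genes. In IRE1 cells 42 of the 43 genes had DTT and untreated arrays that did not overlap, as did 74.3% of all genes, and in ΔLD cells 40 did, against 71.8%. Changes of at least 2-fold were called for 9 of the 43 in IRE1 cells and 10 in ΔLD cells, against 13.7% and 11.5% of all genes. Within slides, 41 genes were lower with DTT on each of the 3 slides in IRE1 cells and 38 in ΔLD cells, where 38.5% and 36% of all genes were. With the spike-in scaling only 15 of the 43 had a negative DTT change in IRE1 cells, 7 rose and 1 fell. Relative to the median of all genes, 41 lay lower in each strain. The spike-in scaling moves all genes of an array by the same amount, so it cannot change that count and is no check of it.

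The arginine pathway held the largest fall. ARG3 (YJL088W), ornithine carbamoyltransferase, measured 0.35, 0.31 and 0.11 in untreated IRE1 cells and -1.64, -1.63 and -1.49 with DTT. In ΔLD cells it measured 0.1, 0.17 and 0, and with DTT -1.47, -1.63 and -1.48. The gap between conditions was far wider than the spread of either: the fall was 3.6-fold in IRE1 cells (-1.85, SE 0.13, adjusted p = 1.08e-09, limma) and 3.07-fold in ΔLD cells (-1.62, SE 0.13, adjusted p = 1.01e-08). ARG4, argininosuccinate lyase, fell by 1.17 and 1.41 and ARG1, argininosuccinate synthetase, by 1.06 and 1.15 on the log2 scale. ARG8, the acetylornithine aminotransferase, fell by 0.75 and 0.76. CPA1, a subunit of the carbamoyl phosphate synthetase that serves arginine, fell by 0.9 in IRE1 cells and 0.52 in ΔLD cells. ORT1 (YOR130C), the mitochondrial ornithine transporter, changed least: -0.16 (SE 0.06, adjusted p = 0.0295) in IRE1 cells and -0.13 (SE 0.06, adjusted p = 0.0738) in ΔLD cells. Its call in IRE1 cells was lost in 6 of the 27 fits that left out arrays.

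Among the histidine genes, 5 of 6 fell in each strain, with medians of -0.94 and -0.91. HIS6, an isomerase of the pathway, measured -1.09, -1.14 and -1.09 in untreated IRE1 cells and -2.15, -2.15 and -2.14 with DTT. HIS4, which encodes a multifunctional enzyme and is a classical reporter of Gcn4, measured 2.4, 2.47 and 2.46 in untreated ΔLD cells and 1.41, 1.36 and 1.3 with DTT. In both genes the 2 conditions were separated by several times the spread of the arrays. HIS6 fell by 1.04 (SE 0.15) in IRE1 cells and HIS4 by 1.09 (SE 0.06) in ΔLD cells. HIS1, the first enzyme of the pathway, fell by 1.03 and 1.09, HIS7, imidazole glycerol phosphate synthase, by 0.96 and 0.88, and HIS5, histidinol phosphate aminotransferase, by 0.77 and 0.68. HIS2 (YFR025C), the histidinol phosphatase, did not follow: its change was 0.12 (SE 0.07, adjusted p = 0.133) in IRE1 cells, and it rose by 0.2 (SE 0.07, adjusted p = 0.0139) in ΔLD cells, where 4 of the 27 fits that left out arrays did not call it.

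The branched chain pathway gave 9 falls and 1 rise in each strain. The largest fall was that of ILV3, dihydroxyacid dehydratase, which measured 3.02, 3.08 and 3.05 in untreated IRE1 cells and 2.03, 2.07 and 1.99 with DTT. That is a fall of 1.02 (SE 0.06, adjusted p = 1.54e-10), and in ΔLD cells it fell by 1.21 (SE 0.06, adjusted p = 3.98e-11). ILV2 and ILV6, the catalytic and regulatory subunits of acetolactate synthase, fell by 0.82 and 0.85 in IRE1 cells and by 0.55 and 0.88 in ΔLD cells. ILV5, the reductoisomerase, fell by 0.81 and 0.78, ILV1, threonine deaminase, by 0.62 and 0.44, and LEU1, isopropylmalate isomerase, by 0.62 and 0.58. The exception was BAT2 (YJR148W), the cytosolic branched chain aminotransferase, which catalyses the last step of synthesis and the first of breakdown. It measured -0.38, -0.34 and -0.31 in untreated IRE1 cells and 0.46, 0.59 and 0.63 with DTT. Its rise was 0.9 (SE 0.07, adjusted p = 5.87e-09) in IRE1 cells and 1.01 (SE 0.07, adjusted p = 2.34e-09) in ΔLD cells. BAT1, the mitochondrial form, fell by 0.93 (SE 0.06) and 0.88 (SE 0.06).

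In the lysine pathway all 7 genes fell in IRE1 cells and 4 in ΔLD cells. LYS4, homoaconitase, had the largest fall, from 2.51, 2.53 and 2.55 to 1.33, 1.46 and 1.39 in IRE1 cells, a change of -1.13 (SE 0.13), with -1.1 (SE 0.13) in ΔLD cells. LYS2, aminoadipate reductase, fell by 1.03 and 0.97, LYS21, a homocitrate synthase, by 0.81 and 0.79, and LYS12, homoisocitrate dehydrogenase, by 0.47 and 0.42. The saccharopine dehydrogenase genes LYS1 and LYS9 and the other homocitrate synthase gene, LYS20, fell in IRE1 cells, by 0.3, 0.25 and 0.48, and were not called in ΔLD cells, with changes of -0.1, -0.15 and -0.3. The difference between strains was not called for any of these 3 genes. In IRE1 cells the calls of LYS9 and LYS20 were lost in 4 and 6 of the 27 fits with arrays left out. The spike-in scaling moves every gene of an array by the same amount. On that scale LYS21 and the genes that fell less (LYS1, LYS9, LYS12 and LYS20) had DTT changes above 0 in IRE1 cells.

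The tryptophan genes fell without exception in both strains, by 0.42 to 0.68 in IRE1 cells and 0.33 to 0.62 in ΔLD cells. The spike-in scaling moves every gene of an array by the same amount. On that scale the change of TRP4, the largest fall of these genes, was above 0 in IRE1 cells. The changes of the other tryptophan genes in IRE1 cells were then above 0 as well. TRP4, anthranilate phosphoribosyltransferase, fell most and TRP3, a subunit of anthranilate synthase with a further activity in the pathway, least. Of the 6 aromatic genes 5 fell in each strain. ARO4 (YBR249C), one of the paired enzymes of the first step of the pathway, measured 2.79, 2.84 and 2.46 in untreated IRE1 cells and 1.51, 1.43 and 1.36 with DTT. It fell by 1.26 (SE 0.14, adjusted p = 3.12e-07), and by 1.34 (SE 0.14) in ΔLD cells. ARO1, the multifunctional enzyme of the middle steps, fell by 0.95 and 0.88. ARO7, chorismate mutase, at the branch to phenylalanine and tyrosine, was not called (-0.17, SE 0.11, in both strains). ASN1, an asparagine synthetase, fell by 0.89 and 1.03, and SER1, phosphoserine aminotransferase, by 0.56 and 0.47. ASN2, the other asparagine synthetase, fell by 0.27 (SE 0.09, adjusted p = 0.0172) in IRE1 cells and was not called in ΔLD cells (-0.09, SE 0.09). Its call in IRE1 cells was lost in 4 of the 27 fits with arrays left out. The direction of ASN2 turned under quantile normalization, to 0.39 and 0.52.

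**Figure D2:**
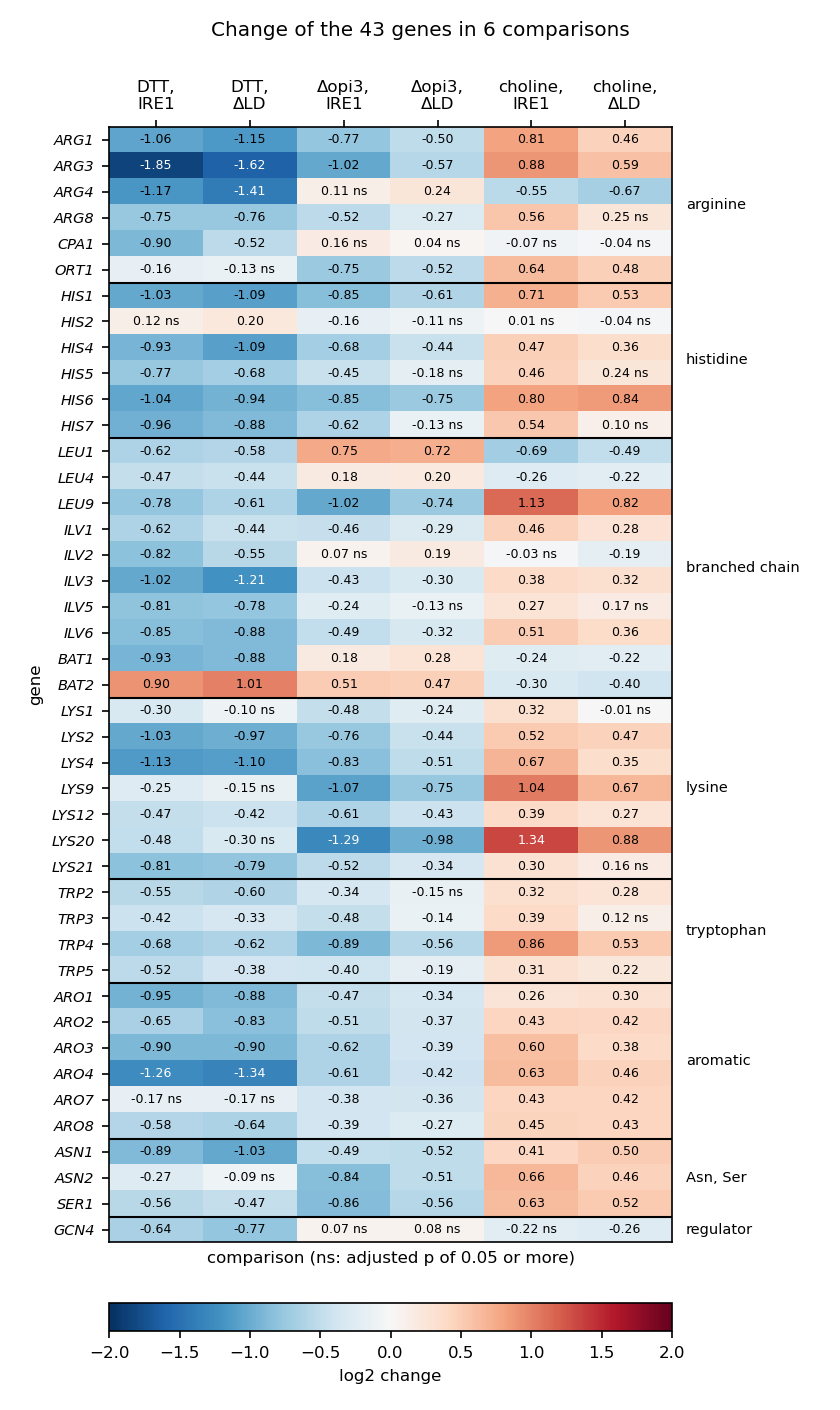
Log2 change of each of the 43 genes (rows, by pathway) in 6 comparisons (columns: DTT or Δopi3 against untreated, and choline against no choline in Δopi3 cells), relative to the array's 75th percentile; blue is lower, red is higher, and ns marks an adjusted p of 0.05 or more. The DTT columns are blue except for BAT2 and HIS2, and the Δopi3 columns hold a red block at LEU1, LEU4, BAT1 and BAT2. The choline columns mostly carry the colours opposite to those of Δopi3. Both use the Δopi3 arrays without choline, with opposite sign, so opposite colours are partly built in. Scaled to spike-in probes, only 15 of the 43 DTT changes in IRE1 cells are below 0.

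Cells labelled Δopi3 also had lower signals of most of these genes, but with another order of genes. In IRE1 cells 35 fell and 4 rose, where 35.1% of all genes fell and 32.2% rose. In ΔLD cells 30 fell and 6 rose, against 27.3% and 29.2% of all genes. The medians of the 43 were -0.49 and -0.34, beside -0.02 and 0 for all genes. Groups did not overlap for 37 genes in IRE1 cells and 38 in ΔLD cells, against 64.3% and 66.4% of all genes. A change of at least 2-fold was called for 4 genes in IRE1 cells and 0 in ΔLD cells, where 11.5% and 8.02% of all genes had one. The median within slides 1, 2 and 3 was -0.74, -0.56 and -0.26 in IRE1 cells and -0.37, -0.37 and -0.26 in ΔLD cells. Slide 3, whose 2 Δopi3 arrays without choline held the highest OPI3 signals, had the smallest median in both strains. That OPI3 signal moved with the size of the change, and its part in the result was not tested. Without the 5 arrays that had OPI3 above background, 34 fell and 3 rose in IRE1 cells, with a median of -0.7, and 27 fell and 4 rose in ΔLD cells, with a median of -0.42. That fit has 1 array left in each Δopi3 group without choline and takes its spread from the other groups. In ΔLD cells the count depended on slide 2, without which 14 fell and 4 rose. With the spike-in scaling 9 fell and 2 rose in IRE1 cells and 4 fell and 1 rose in ΔLD cells. Relative to the median of all genes, 35 of the 43 lay lower in each strain, a count that the spike-in scaling cannot change.

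**Figure D3:**
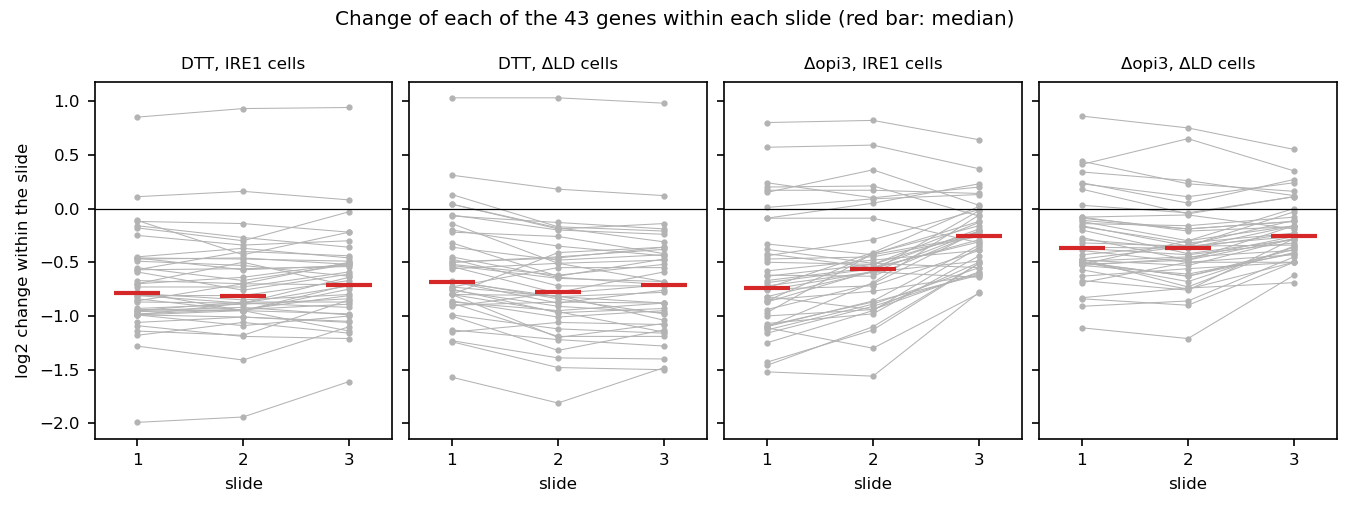
Log2 change of each of the 43 genes (grey points joined by lines) within each of the 3 slides (horizontal axis), for DTT and for Δopi3 against untreated in each strain, relative to the array's 75th percentile, with a red bar at the median. The DTT medians lie between -0.68 and -0.81 on every slide, while the Δopi3 medians in IRE1 cells go from -0.74 on slide 1 to -0.26 on slide 3.

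All 7 lysine genes fell in each strain, with medians of -0.76 and -0.44. LYS20 (YDL182W) measured 0.94, 1.27 and 1.15 in untreated IRE1 cells and -0.59, -0.29 and 0.37 in Δopi3 cells, and 0.62, 0.72 and 0.72 against -0.49, -0.49 and 0.1 in ΔLD cells. The groups did not overlap, and replicate 3 was the highest of the Δopi3 arrays in both strains. LYS20 fell by 1.29 (SE 0.19, adjusted p = 1.02e-05) and 0.98 (SE 0.19, adjusted p = 0.00029), and LYS9 by 1.07 (SE 0.1) and 0.75 (SE 0.1). When the 5 arrays with OPI3 signal were left out, the changes of LYS20 were -1.71 and -1.18 and those of LYS9 -1.23 and -0.9. The smallest fall was that of LYS1 (YIR034C), by 0.48 and 0.24, and its call in ΔLD cells was lost in 6 of the 27 fits with arrays left out. All 6 aromatic genes fell in both strains, by 0.38 to 0.62 in IRE1 cells and 0.27 to 0.42 in ΔLD cells. ARO7 overlapped between the groups of IRE1 cells and changed by 0.02 on slide 3, and its call was lost in 2 of the 27 fits with arrays left out. In ΔLD cells the calls of ARO3, ARO4 and ARO8 were lost in 3, 3 and 5 of them. ASN1, ASN2 and SER1 fell as well, SER1 by 0.86 (SE 0.09) and 0.56 (SE 0.09) and ASN2 by 0.84 (SE 0.09) and 0.51 (SE 0.09).

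In the arginine pathway ARG3 again had the largest fall, by 1.02 (SE 0.13) in IRE1 cells and 0.57 (SE 0.13) in ΔLD cells. ORT1, nearly flat with DTT, measured -0.22, -0.22 and -0.29 in untreated IRE1 cells and -1.07, -1 and -0.91 in Δopi3 cells. It fell by 0.75 (SE 0.06, adjusted p = 6.8e-09), and by 0.52 (SE 0.06, adjusted p = 1.58e-06) in ΔLD cells. Leaving out those 5 arrays, ARG3 changed by -1.37 and -0.66 and ORT1 by -0.82 and -0.54. ARG4 (YHR018C) was not lower: it measured 2.21, 2.11 and 2.22 untreated against 2.4, 2.32 and 2.15 in Δopi3 IRE1 cells, which overlapped (0.11, SE 0.09, adjusted p = 0.296). In ΔLD cells, ARG4 rose by 0.24 (SE 0.09, adjusted p = 0.036), a call lost without those arrays (0.31, adjusted p = 0.0626). CPA1 was not called in either strain (0.16 and 0.04, SE 0.09). Among the histidine genes HIS6 fell by 0.85 (SE 0.15) and 0.75 (SE 0.15), HIS1 by 0.85 and 0.61 and HIS4 by 0.68 and 0.44. HIS2 changed least, -0.16 (adjusted p = 0.0427) and -0.11 (adjusted p = 0.19), and 7 of the 27 fits that left out arrays did not call it in IRE1 cells. TRP4 fell by 0.89 (SE 0.09) and 0.56 (SE 0.09), the most of the 4 tryptophan genes.

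The branched chain genes were split. In IRE1 cells 5 fell and 4 rose, and in ΔLD cells 4 fell and 5 rose, so that the pathway medians were -0.09 and 0.03. LEU1 (YGL009C) measured 3.09, 3.07 and 2.95 in untreated IRE1 cells, 2.39, 2.43 and 2.45 with DTT, 3.89, 3.88 and 3.59 in Δopi3 cells and 3.14, 3.13 and 3 with choline. Its Δopi3 arrays were the highest and its DTT arrays the lowest of the strain, with no overlap. LEU1 rose by 0.75 (SE 0.08, adjusted p = 2.16e-07) in Δopi3 IRE1 cells and by 0.72 (SE 0.08, adjusted p = 6.77e-07) in Δopi3 ΔLD cells. LEU4, an isopropylmalate synthase, rose by 0.18 and 0.2, BAT1 by 0.18 and 0.28, and BAT2 by 0.51 and 0.47. The call of LEU4 was lost in 4 (IRE1 cells) and 5 (ΔLD cells) of the 27 fits with arrays left out, and that of BAT1 in 5 and 1. Without the 5 arrays with OPI3 signal LEU1 rose by 0.86 and 0.72, LEU4 in IRE1 cells (0.15) and ILV2 in ΔLD cells (0.17) were not called, and LEU9 changed by -1.34 and -0.94. For ILV2 the change was 0.07 (SE 0.06, adjusted p = 0.328) in IRE1 cells, and it rose by 0.19 (SE 0.06, adjusted p = 0.0101) in ΔLD cells. LEU9, the paralog of LEU4, fell by 1.02 (SE 0.14) and 0.74 (SE 0.14), the largest falls of the pathway. ILV3, ILV6 and ILV1 fell in both strains, by 0.43, 0.49 and 0.46 in IRE1 cells and by 0.3, 0.32 and 0.29 in ΔLD cells. ILV5 fell by 0.24 in IRE1 cells and was not called in ΔLD cells (-0.13, SE 0.08). LEU3, the regulator gene of the leucine pathway, changed by -0.17 (adjusted p = 0.105) and -0.01 (adjusted p = 0.97).

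**Figure D4:**
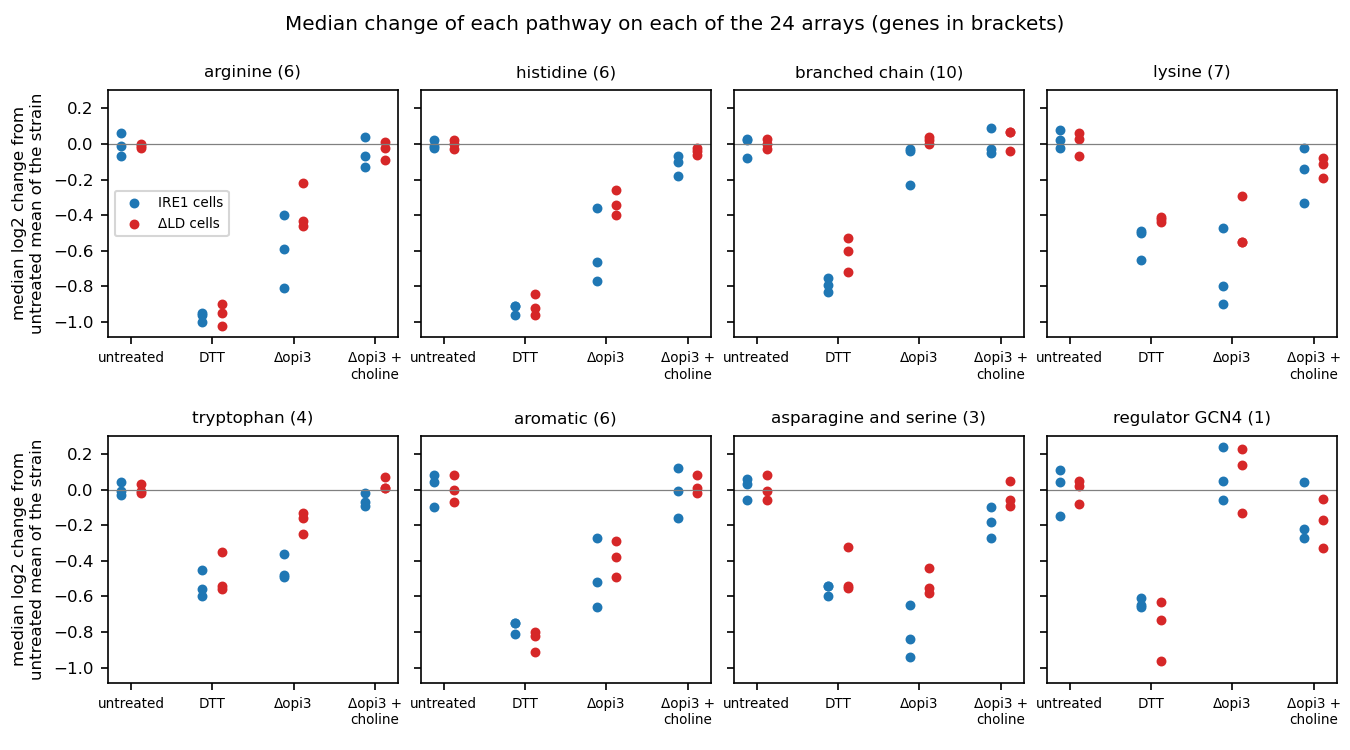
Median log2 change of each pathway's genes from the untreated mean of the same strain (vertical axis, relative to the array's 75th percentile) on each of the 24 arrays, by condition (horizontal axis), blue for IRE1 cells and red for ΔLD cells; the number of genes is in brackets. The arginine, histidine, branched chain, aromatic and GCN4 panels are lower with DTT than in Δopi3 cells of the same strain. All panels other than branched chain and GCN4 have negative medians in both. The choline arrays lie closer to 0 in most panels, down to -0.33 in the lysine and GCN4 panels.

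The DTT and Δopi3 comparisons of a strain share their untreated arrays, so their values are set side by side. In IRE1 cells 33 genes fell in both, 3 fell with DTT and rose in Δopi3 cells (LEU1, LEU4 and BAT1), BAT2 rose in both, 4 fell with DTT only by these calls (ARG4, CPA1, ILV2 and GCN4), and HIS2 and ARO7 fell only in Δopi3 cells by these calls. In ΔLD cells 24 fell in both and 5 fell with DTT and rose in Δopi3 cells (ARG4, LEU1, LEU4, ILV2 and BAT1). The difference itself was tested by comparing Δopi3 with DTT cells directly, which uses no untreated array. Of the 43 genes 21 were higher and 8 lower in Δopi3 IRE1 cells, where 25.2% and 33.6% of all genes were, and 29 were higher and 6 lower in ΔLD cells, against 30.3% and 31.9%. The balance turned with the spike-in scaling: 2 were higher and 14 lower in IRE1 cells (median -0.41, all genes -0.71), and 4 higher and 6 lower in ΔLD cells (median 0.11, all genes -0.39). The comparison sets a mutant grown continuously against a treatment of 1 h. In each strain 4 of the 43 differed by at least 2-fold, against 7.3% and 7.73% of all genes. The genes past 2-fold were LEU1 (1.37 in IRE1 cells and 1.3 in ΔLD cells), ARG4 (1.28 and 1.65) and BAT1 (1.11 and 1.16) in both strains, CPA1 in IRE1 cells (1.06, with 0.56 in ΔLD cells) and ARG3 in ΔLD cells (1.05, with 0.82 in IRE1 cells). GCN4 was higher in Δopi3 cells by 0.71 (adjusted p = 2e-05) and 0.85 (adjusted p = 2.4e-06). LYS9 (-0.81 and -0.6), LYS20 (-0.81 and -0.68), ORT1 (-0.59 and -0.39) and ASN2 (-0.58 and -0.42) were lower in Δopi3 cells in both strains. Without the 5 arrays with OPI3 above background, 13 were higher and 10 lower in IRE1 cells and 28 higher and 6 lower in ΔLD cells. Across the 43 genes, the DTT changes of one strain and the Δopi3 changes of the other, which share no array, had a Pearson correlation of 0.24 in either pairing, where all genes had 0.55. With those 5 arrays left out these were 0.22 and 0.28, and 0.53 and 0.59 for all genes. These are correlations across genes, which share arrays within each comparison and are not independent replicates.

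Some genes for paired enzymes changed unequally. LEU9 and LEU4 both encode isopropylmalate synthases: LEU9 measured 0.76, 0.68 and 0.56 in untreated IRE1 cells and -0.67, -0.44 and 0.05 in Δopi3 cells, while LEU4 measured 2.94, 2.9 and 2.98 and then 3.09, 3.26 and 3.01. The Δopi3 change of LEU4 exceeded that of LEU9 by 1.2 in IRE1 cells and 0.94 in ΔLD cells. For the homocitrate synthase genes, the change of LYS20 minus that of LYS21 was -0.77 and -0.64 with Δopi3, and 0.33 and 0.49 with DTT. ASN1 changed by -0.62 and -0.94 relative to ASN2 with DTT, and BAT1 by -1.84 and -1.9 relative to BAT2. These 10 were chosen from 30 contrasts (5 pairs, 6 comparisons). In each the arrays of the compared groups did not overlap in the ratio. An exact two-sided permutation test of 3 against 3 arrays gave p = 0.1 for each, the smallest it can give. Non-overlap was not particular to them, as most of the 30 contrasts had it. It also held for ARO3 and ARO4 with DTT, for ASN1 and ASN2 with Δopi3 in IRE1 cells, and for other contrasts, while some overlapped. No share over other gene pairs was computed. ARO3 and ARO4, the paired enzymes of the first aromatic step, differed by 0 and 0.03 in their Δopi3 change (exact permutation p = 1 and 0.7) and by 0.36 and 0.44 with DTT, where ARO4 fell more. Paralogs are similar in sequence, and whether a probe also binds the other transcript was not tested.

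With choline most of these genes rose in Δopi3 cells. The choline and Δopi3 comparisons of a strain share the Δopi3 arrays without choline, with opposite sign, so opposite changes are partly built in. In IRE1 cells 34 genes rose and 5 fell against Δopi3 cells without choline, where 34% of all genes rose and 36.3% fell. In ΔLD cells 27 rose and 7 fell, against 27.8% and 32.1% of all genes. The medians were 0.45 and 0.32, beside -0.02 and -0.03 for all genes. At least 2-fold changes were called for 3 and 0 of the 43, and for 12.9% and 8.62% of all genes. LYS20 returned to 0.87, 1.38 and 1.25 in IRE1 cells, which overlapped the untreated arrays, and rose by 1.34 (SE 0.19, adjusted p = 6.15e-06). LEU9 rose by 1.13 (SE 0.14) and LYS9 by 1.04 (SE 0.1) in IRE1 cells, and by 0.82 and 0.67 in ΔLD cells. The 5 that fell in IRE1 cells were LEU1 (-0.69), ARG4 (-0.55), BAT2 (-0.3), LEU4 (-0.26) and BAT1 (-0.24). In ΔLD cells the same 5 fell, together with GCN4 (-0.26, adjusted p = 0.0484) and ILV2 (-0.19). In ΔLD cells the count depended on slide 2, without which 15 rose and 5 fell. With the spike-in scaling 28 rose in IRE1 cells and 12 in ΔLD cells and none fell, so the 5 and 7 falls named here were not called on that scale. Without the arrays with OPI3 above background 34 rose and 4 fell in IRE1 cells and 27 rose and 6 fell in ΔLD cells. LYS20 then rose by 1.72 and 1.08 and LEU9 by 1.47 and 1.01, and LEU4 in IRE1 cells and ILV2 in ΔLD cells were not called.

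Choline-treated Δopi3 cells were then compared with untreated cells that carry OPI3. In each strain 1 gene of the 43 was called, ARG4, which was lower by 0.43 (SE 0.09) with an adjusted p of 0.0164 in IRE1 cells and 0.0391 in ΔLD cells. Of all genes 2% were lower in IRE1 cells and 0.483% in ΔLD cells, while 0.225% and 0.0322% were higher. No member differed by 2-fold, as 0.177% and 0.0805% of all genes did. ARG4 measured 2.21, 2.11 and 2.22 in untreated IRE1 cells and 1.87, 1.68 and 1.69 with choline, and 1.64, 1.57 and 1.79 against 1.39, 1.1 and 1.21 in ΔLD cells, with no overlap in either strain. None of the 43 genes was called in 6 of the 27 fits that left out arrays in IRE1 cells and in 13 of 27 in ΔLD cells. The call of ARG4 was therefore lost in at least those fits. Leaving out the 5 arrays with OPI3 signal gave ARG4 -0.41 (adjusted p = 0.0536) in IRE1 cells, where LYS12 (-0.26) was then called, and -0.43 (adjusted p = 0.0625) in ΔLD cells. A missed call does not show that the other 42 genes were back at their untreated level: their changes ran from -0.23 to 0.2 in IRE1 cells and from -0.25 to 0.23 in ΔLD cells. With the slide as a block, HIS4 (-0.21) and LYS12 (-0.23) were also called in IRE1 cells, and only ARG4 in ΔLD cells.

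Untreated ΔLD cells had somewhat lower levels of these genes than untreated IRE1 cells. In untreated cells 8 of the 43 genes were lower and none higher in ΔLD than in IRE1 cells by limma, where 0.741% of all genes were lower and 0.0483% higher. The median difference was -0.21, beside -0.01 for all genes, and 36 of the 43 were lower on each of the 3 slides, where 21.2% of all genes were. LYS1 had the largest difference: it measured 0.25, 0.49 and 0.5 in IRE1 cells and -0.37, -0.35 and -0.22 in ΔLD cells. The groups did not overlap and the difference was -0.73 (SE 0.1, adjusted p = 0.00015). The other 7 were ARG4 (-0.52), LYS2 (-0.46), HIS4 (-0.41), ORT1 (-0.38), HIS7 (-0.33), TRP3 (-0.31) and LEU4 (-0.29). GCN4 was not called (-0.06, adjusted p = 1). The values of ARG4 and LYS1 in the authors' deposited table were -0.52 and -0.73 for untreated ΔLD cells. That table does not name the reference group of its ratios, and its values come from these same samples, so they are no independent support. With DTT 17 genes were lower and 1 higher in ΔLD cells (13.2% and 7.47% of all genes), with Δopi3 5 were lower and 0 higher (9.23% and 6.91%), and with choline 9 were lower and 0 higher (1.5% and 1.64%). ARG4 and LYS1 were lower in ΔLD cells in all 4 conditions, although their calls in Δopi3 cells were lost without the 5 arrays with OPI3 signal (-0.43 and -0.41), when 1 member was higher and 1 lower. No member had a called difference of 2-fold between the strains, where 0.193%, 2.35%, 1.26% and 0.37% of all genes did in untreated, DTT, Δopi3 and choline-treated cells. The count in untreated cells was 4 or 5 without replicate 1 or 2 of either group, and 2, 0 and 3 without slide 1, 2 or 3. Without the Δopi3 array of replicate 3 in IRE1 cells the Δopi3 count became 5 higher and 6 lower, and without replicate 3 of the DTT-treated ΔLD cells the DTT count became 10 lower. Without slide 2 the counts were 3 with DTT, 0 with Δopi3 and 1 with choline, and single choline arrays left out gave 2 to 4. With the spike-in scaling no member was called in untreated cells, where the median of all genes was 0.4 and that of the members 0.19. The marker gene HIS3, a histidine gene outside the list, was higher in untreated ΔLD cells by 1.15 (SE 0.17, adjusted p = 0.000481). The IRE1 probe differed more: it measured -2.59, -2.28 and -1.71 in untreated IRE1 cells and -0.2, -0.17 and 0.1 in untreated ΔLD cells, and was higher in ΔLD cells without overlap in all 4 conditions. HIS3 and IRE1 signals moved with the strain, and their part in the differences was not tested.

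The changes of the 43 genes were ordered similarly in both strains. Across the 43 genes the changes in IRE1 and ΔLD cells, which share no array, had Pearson correlations of 0.96 for DTT, 0.97 for Δopi3 and 0.94 for choline, where all genes had 0.87, 0.91 and 0.91. Without the 5 arrays with OPI3 signal the Δopi3 and choline values were 0.97 and 0.95, and 0.91 and 0.92 for all genes. The difference of the DTT effect, ΔLD minus IRE1, was called for 1 gene, ILV2, where 1.72% of all genes had a positive called difference. ILV2 (YMR108W) measured 3.12, 3.08 and 2.94 in untreated IRE1 cells and 2.25, 2.21 and 2.23 with DTT, and 2.87, 3 and 2.93 against 2.35, 2.38 and 2.41 in ΔLD cells. Its fall was smaller in ΔLD cells by 0.27 (SE 0.08, adjusted p = 0.0442), a call that 19 of the 27 fits with arrays left out did not make and whose sign turned with the spike-in scaling (-0.27). For Δopi3 the difference was called for HIS7 and TRP3, where 1.79% of all genes had a positive called difference. HIS7 (YBR248C) measured 2.12 on all 3 untreated arrays of IRE1 cells and 1.37, 1.4 and 1.74 in Δopi3 cells, and 1.75, 1.78 and 1.84 against 1.66, 1.59 and 1.72 in ΔLD cells. It fell by 0.62 in IRE1 cells (SE 0.07) and changed by -0.13 (SE 0.07, adjusted p = 0.132) in ΔLD cells, a difference of 0.49 (95% interval 0.27 to 0.71, adjusted p = 0.00886). TRP3 (YKL211C) measured 1.7, 1.64 and 1.66 and then 1.12, 1.16 and 1.28 in IRE1 cells, and 1.33, 1.34 and 1.41 and then 1.23, 1.15 and 1.3 in ΔLD cells. The difference was 0.35 (95% interval 0.18 to 0.51, adjusted p = 0.0143), and on both genes the untreated levels of the strains differed while the Δopi3 levels overlapped. With choline the differences were -0.44 for HIS7 (adjusted p = 0.0125) and -0.26 for TRP3 (adjusted p = 0.0468), where 2.21% of all genes had a negative called difference, and the TRP3 call was lost in 24 of the 27 fits with arrays left out. None of these differences between effects reached 2-fold, as 1.71%, 1.16% and 1.64% of all genes did for DTT, Δopi3 and choline, and negative called differences (6.59% and 2.32% of all genes for DTT and Δopi3) and positive ones for choline (4.78%) were not found among the 43. The Δopi3 difference was positive for 39 of the 43 genes and for 56.1% of all genes, and 10 of the 43 had an unadjusted p under 0.05, as did 16.8% of all genes. With the spike-in scaling it was negative for 30 of the 43, with a median of -0.07 beside -0.22 for all genes. The untreated levels enter this difference: the median of ΔLD against IRE1 cells was -0.21 untreated and -0.04 in Δopi3 cells. Without replicate 3 of the Δopi3 IRE1 cells, the array with the highest OPI3 signal, 12 genes had a called Δopi3 difference, and 11 had a called choline difference, 1 higher and 10 lower. Without all 5 arrays with OPI3 signal the Δopi3 differences were 0.62 for HIS7 (adjusted p = 0.00489) and 0.41 for TRP3 (adjusted p = 0.0438), and the choline differences -0.57 (adjusted p = 0.0095) and -0.32 (adjusted p = 0.134). Leaving out slide 1 or slide 2 left 0 called Δopi3 differences.

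**Figure D5:**
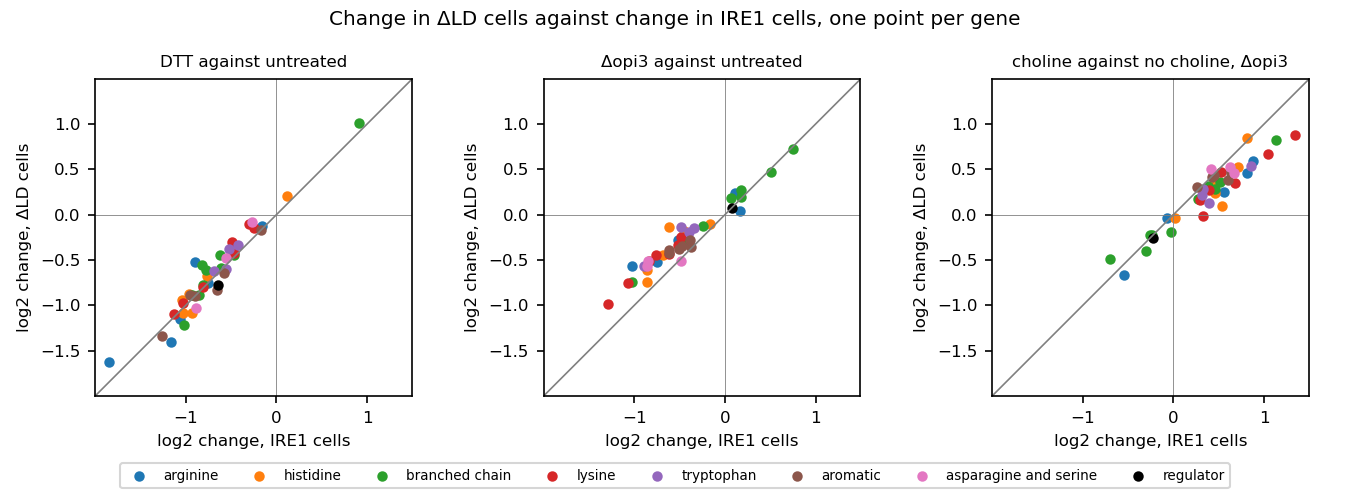
Log2 change in ΔLD cells (vertical axis) against log2 change in IRE1 cells (horizontal axis) for each of the 43 genes, coloured by pathway, for DTT, Δopi3 and choline, relative to the array's 75th percentile; the diagonal marks equal changes. The points follow the diagonal for DTT, and lie above it for 39 of the 43 genes with Δopi3 and below it for 36 with choline. Scaled to spike-in probes, the Δopi3 difference between strains is negative for 30 of the 43.

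Other genes of amino acid metabolism give the surroundings. With DTT 30.1% of all genes fell and 39.4% rose in IRE1 cells, and 28.3% and 38.1% in ΔLD cells. With Δopi3 35.1% fell and 32.2% rose in IRE1 cells, and 27.3% and 29.2% in ΔLD cells. Of 27 further biosynthetic genes, 19 fell and 1 rose with DTT in IRE1 cells and 20 fell and 1 rose in ΔLD cells, with medians of -0.51 and -0.4. In Δopi3 cells 19 fell and 4 rose, and 16 fell and 3 rose. GLN1, glutamine synthetase, fell by 1.71 (SE 0.18) with DTT and was not called in Δopi3 IRE1 cells (-0.34, adjusted p = 0.109), while GDH3, a glutamate dehydrogenase, rose by 1.87 (SE 0.15) in Δopi3 IRE1 cells. The 10 genes of adenine synthesis, which Gcn4 and Bas1 both activate, all fell with DTT in both strains, with medians of -1.27 and -1.29, and ADE17 fell most, by 1.88 and 2.23. In Δopi3 cells all 10 fell in IRE1 cells and 5 in ΔLD cells. Of 14 sulfur assimilation genes 11 fell with DTT in each strain. Among 14 genes that control Gcn4 (eIF2, its exchange factor eIF2B, the Gcn2 kinase and its partners, and the factors that degrade Gcn4), 9 fell and 1 rose with DTT in IRE1 cells, and 11 fell and 1 rose with Δopi3. With DTT the change of GCN2 was 0.08 (adjusted p = 0.41), and it rose by 0.2 (adjusted p = 0.0438) with Δopi3 in IRE1 cells. SUI3, a subunit of eIF2, fell by 0.71 with DTT and 0.7 with Δopi3. Of 12 regulators of single pathways 5 fell and 3 rose with DTT in IRE1 cells, BAS1 the most (-0.88, SE 0.08). LYS14 fell by 0.46 and 0.32 with DTT and by 0.42 and 0.23 with Δopi3.

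Genes of amino acid uptake and breakdown were also counted. Of 14 amino acid permease genes 7 fell and 1 rose with DTT in IRE1 cells, and 9 fell and 1 rose with Δopi3. In ΔLD cells 4 fell with DTT and 11 with Δopi3. GAP1, the general amino acid permease, fell by 1.65 and 1.58 with DTT. Of 10 breakdown genes 5 rose and 3 fell with DTT in IRE1 cells and 5 rose and 3 fell with Δopi3. GDH2, the NAD-dependent glutamate dehydrogenase, rose by 0.77 with DTT and by 1.74 with Δopi3. ARO10, a decarboxylase of aromatic amino acid breakdown, rose by 1.17 with DTT and fell by 1 with Δopi3 in IRE1 cells. Over all genes, 39.4% rose and 30.1% fell with DTT in IRE1 cells, and 32.2% rose and 35.1% fell with Δopi3. In ΔLD cells 28.3% fell with DTT and 27.3% with Δopi3. The counts of the breakdown genes, of the regulators with DTT, and of the permeases that fell with DTT in ΔLD cells are not far from these shares. No test of a list was made.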

How the data were processed

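RNA of 24 yeast samples (8 groups of 3, assigned by their labels) was hybridised to one-colour Agilent arrays. The authors deposited scanner files of spot intensity values. Their headers name Agilent Feature Extraction 10.7.1.1, which subtracted background and a spatial trend and left arrays unscaled against each other. A further table deposited by the authors gives log2 ratios of selected genes and holds ARG4 and LYS1 of the genes described here. Its values are averages over replicates, and its scaling is not given in the sources used here.

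From the log2 of the processed signal, each array's 75th percentile was subtracted, and spots of a probe (9 to 10 each, 61657 spots per array), then probes of a gene, were averaged. Outlier spots were left out (1.1% to 2.05%). A gene was kept (6209 in all) if over 50% of its probe's spots passed background on every array of any 1 group. One model of 8 group means was fitted to all 24 arrays with limma 3.58.1 (R 4.3.3), with 16 residual degrees of freedom and Benjamini-Hochberg adjustment within each of 14 comparisons and 3 differences between effects. The fit was tested on simulated data. The median SE was 0.098; the number of arrays limits the precision. A replicate number is 1 slide. Paired analysis: 63 of 84 same-numbered pairs of arrays had deviations correlated above 0.1. The slide was fitted as an alternative only and was not part of the main model. The SE and calls of that model therefore leave this pairing out.

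The members and lists were chosen with earlier results of these data known. Named were GCN4, in each pathway the genes with the largest and smallest change in each DTT and Δopi3 effect, the paralog pairs, ORT1 and every member called in a difference between strains; other names were added for their pathway role. Alternatives were quantile normalization, spike-in scaling, normexp background correction (on median signals), no filter on dim probes, the slide as a block, only the compared groups in the model, leaving out arrays, and a 2-fold limit. No coordinates are given.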

Additional observations from a re-analysis of the deposited data

Results flagged for a closer look

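The results named here, 5 in number, differed between the strains by the model's test of the difference itself, ΔLD minus IRE1 cells. The DTT change of ILV2 differed by 0.27 (SE 0.08, adjusted p = 0.0442, limma), with 0.35, 0.26 and 0.2 on the 3 slides. That call was lost in 19 of the 27 fits with arrays left out, and its sign turned with the spike-in scaling. The Δopi3 change of HIS7 differed by 0.49 (SE 0.1, adjusted p = 0.00886), with 0.66, 0.53 and 0.27 on the 3 slides. The Δopi3 change of TRP3 differed by 0.35 (SE 0.08, adjusted p = 0.0143), with 0.47, 0.3 and 0.27. The choline change of HIS7 differed by -0.44 (SE 0.1, adjusted p = 0.0125) and that of TRP3 by -0.26 (SE 0.08, adjusted p = 0.0468), each negative on all 3 slides. Of all genes, 31% had a positive DTT difference on all 3 slides and 25.2% a positive Δopi3 difference. For choline, 27.3% had a negative one. The genes were chosen by calls from these same arrays, so a shared sign across slides adds no support. The Δopi3 and choline differences of a gene share the Δopi3 arrays without choline. For both genes slide 3, whose Δopi3 arrays held the most OPI3 signal, gave the smallest Δopi3 difference.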

How the results depend on the processing

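Counts below are of the 43 genes called, in the order DTT in IRE1 and ΔLD cells, Δopi3 in IRE1 and ΔLD cells, choline in IRE1 and ΔLD cells. As reported they were 41, 37, 39, 36, 39 and 34. Slides as a block, normexp, no filter on dim probes, quantile normalization and only the compared groups kept these 6 counts within 1.5 times. Spike-in scaling gave 8, 13, 11, 5, 28 and 12, and a 2-fold limit 9, 10, 4, 0, 3 and 0. Leaving out arrays gave 36 to 41, 36 to 37, 32 to 40, 18 to 37, 30 to 40 and 20 to 37. For choline-treated Δopi3 against untreated cells (1 in each strain), spike-in scaling, a 2-fold limit, quantile normalization and only the compared groups gave 0 in both, the replicate block 3 in IRE1 cells, leaving out replicate 3 of both Δopi3 groups 2 in IRE1 cells, leaving out the 5 arrays with OPI3 signal 0 in ΔLD cells, and leaving out arrays 0 to 1. For Δopi3 against DTT (29 and 35), spike-in scaling gave 16 and 10, a 2-fold limit 4 and 4, and leaving out arrays 22 to 35 and 32 to 35. For ΔLD against IRE1 cells (8 untreated, 18 DTT, 5 Δopi3, 9 choline), spike-in scaling gave 0, 1, 0 and 0 and a 2-fold limit 0 in each. Quantile normalization gave 5 untreated and 4 with choline, only the compared groups 4 untreated, 1 with Δopi3 and 2 with choline. Leaving out replicate 3 of both Δopi3 groups gave 8 with Δopi3, leaving out the 5 arrays 2, and leaving out arrays 0 to 11, 3 to 23, 0 to 11 and 1 to 11. For the differences between strains (1 DTT, 2 Δopi3, 2 choline), spike-in scaling, a 2-fold limit and only the compared groups gave 0 in each. Quantile normalization gave 3 for DTT and 1 for choline, normexp 0 for DTT, and no filter 1 for choline. Leaving out replicate 3 of both Δopi3 groups gave 4 for Δopi3 and 4 for choline, leaving out the 5 arrays 1 for choline, and leaving out arrays 0 to 2, 0 to 12 and 0 to 11. Signs were compared only for the genes of the naming rule given with the processing, so the lists that follow are not complete for the 43. With spike-in scaling only 15 of the 43 had a DTT change below 0 in IRE1 cells, and 34 in ΔLD cells. Among the genes compared, signs turned with spike-in scaling for DTT in IRE1 cells in ORT1 (0.73), LEU4 (0.42), LYS9 (0.64), TRP4 (0.21), TRP3 (0.46), ARO7 (0.72), ASN2 (0.62), GCN4 (0.25), LEU9 (0.11), LYS20 (0.4) and LYS21 (0.08). They turned for DTT in ΔLD cells in ORT1 (0.22), LYS1 (0.26), TRP3 (0.02), ARO7 (0.19), ASN2 (0.27) and LYS20 (0.05), for Δopi3 in IRE1 cells in HIS2 (0.07) and for the DTT difference of ILV2 (-0.27). Quantile normalization turned ASN2 for DTT (0.39 in IRE1 and 0.52 in ΔLD cells) and ILV5 for Δopi3 in ΔLD cells (0.14). Leaving out arrays of replicate 3, or the 5 arrays, turned values near 0 for Δopi3: ILV2 (-0.02) and GCN4 (-0.01) in IRE1 cells and CPA1 (-0.02, as reported 0.04, up to 0.1 without another array) in ΔLD cells. The spike-in scaling also moved the median of all genes; for the other changes the cause was not tested. As a hint from the data and not the design, all 24 arrays correlated best with arrays of their own replicate number (pairs from -0.321 to 0.803), and the replicate block changed no other count by over 1.5 times. All 43 genes were above background throughout; 3 arrays a group and the SE (0.06 to 0.19) limit what could be called.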
